A study of Rattus norvegicus with 9 samples.

Results

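Apold1 and Mfsd2a, a pair of genes known from vascular endothelium, were followed in the superior mesenteric artery (SMA) of rats under ischemia. They are 2 of the 37203 gene symbols in the count table and were chosen on their measured levels in these same libraries, because both were far higher in ischemic than in normal artery. Their change against normal artery is therefore given as a description, with no test. The question asked here is whether that difference exceeded what the endothelial content of each library could carry, read from Pecam1 and Cdh5, which code for 2 adhesion proteins of endothelial junctions.

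SMAs, the vessels that feed most of the small intestine, came from 8-week-old Sprague-Dawley rats with no engineered allele named. There were 3 groups of 3 rats: normal rats, rats at 1 h of ischemia and rats at 4 h of ischemia. The ischemia was a hemorrhage model set up by bleeding under pentobarbital anesthesia, with time counted from the finished set-up. The study's methods describe no sham operation for the normal rats, so anesthesia, surgery and bleeding cannot be told apart in the contrasts against normal. Each library came from whole vessel, so every value is a mixture over endothelium, smooth muscle and the tissue around the vessel. In such bulk tissue, fewer cells of a type and less RNA per cell cannot be told apart.

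Apold1 (apolipoprotein L domain containing 1) is known as a vascular early response gene. Its transcript is inducible in endothelial cells, responds to hypoxia and ischemia, and its protein has been linked to the permeability and contacts of the endothelial layer. Mfsd2a is a sodium-dependent transporter of the major facilitator superfamily that carries lysophosphatidylcholine, and with it the omega-3 fatty acid DHA, into cells. It is best known in the endothelium of the blood-brain barrier, where it also holds down vesicle traffic across the cell, and it is inducible in liver and fat during fasting and cold.

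The 250 bases upstream of the annotated start of Apold1 are shown because they are the stretch in which an early response gene commonly carries its inducible elements. They lie at chr4:169552349-169552598 on the plus strand of the GRCr8 assembly, from RefSeq, which need not be the build behind the counts. Capitals mark matches to a TATA box, to a CREB core site joined to a CCAAT box, and to the cores ACGTG and GCGTG of hypoxia response elements.
Apold1: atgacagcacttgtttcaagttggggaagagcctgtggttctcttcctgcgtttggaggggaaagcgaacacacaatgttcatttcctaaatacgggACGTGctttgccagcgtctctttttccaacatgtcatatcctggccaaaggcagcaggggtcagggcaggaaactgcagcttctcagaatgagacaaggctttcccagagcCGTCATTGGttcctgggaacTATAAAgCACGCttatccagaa
The TATA box (TATAAA) began 22 bases before the start and is held by 12.9% of the 33469 upstream windows of the same length, each searched on both strands. The CREB core site (TGACG, minus strand, 42 to 38 bases before the start) occurred in 18.2% of windows and shared a base with the CCAAT box (CCAAT, minus strand, 38 to 34 bases before the start), which occurred in 34% of windows. The core ACGTG (153 to 149 bases before the start) was found in 16.6% of windows, and the core GCGTG, on the minus strand from 15 to 11 bases before the start, in 25.9%. The ETS core GGAA, bound by factors such as Erg and Fli1, had 9 matches on either strand and occurred in 93.2% of windows. No match was found in this window for the full CRE (TGACG followed by TCA, 1.59% of windows), the AP-1 site (TGANTCA, 6.34%), the KLF site (CACCC, 49.2%), the CArG box (1.5%), the NF-kB site (7.22%) or the glucocorticoid response element (0.012%). The matches are letters in a reference sequence, and no binding was measured.

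Apold1 was low in normal artery and high in every ischemic library. Levels are in CPM, counts scaled to a common library size after TMM correction. In normal artery Apold1 stood at 21.8, 16.1 and 14.5 CPM in replicates 1 to 3, from 389, 220 and 196 counts. At 1 h it stood at 459, 527 and 625 CPM, from 6859, 7878 and 10169 counts. At 4 h it stood at 223, 551 and 701 CPM, from 2700, 6644 and 10619 counts. The groups did not overlap with normal artery, and the lowest ischemic library, replicate 1 at 4 h, was still 10.3-fold above the highest normal library. The means were 17.4 ± 3.84 CPM in normal artery, 537 ± 83.4 CPM at 1 h and 492 ± 244 CPM at 4 h (SD, n = 3 each). The fitted log2 fold change against normal was 4.94 (SE 0.47) at 1 h and 4.82 (SE 0.47) at 4 h, or 30.8-fold and 28.2-fold. Among the 15482 genes with enough counts to be fitted, 87 had a higher log2 fold change at 1 h and 42 at 4 h. The libraries at 4 h were the least uniform, with the highest 3.14-fold above the lowest, against 1.36-fold at 1 h and 1.504-fold in normal artery.

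Mfsd2a was close to the limit of detection in normal artery and readily counted in every ischemic library. Its normal libraries held 9, 6 and 9 counts, equal to 0.504, 0.438 and 0.665 CPM. The exact 95% Poisson intervals of these values, which cover counting error only, ran from 0.230 to 0.957, from 0.161 to 0.953 and from 0.304 to 1.26 CPM, so the 3 normal libraries could not be separated at this depth. At 1 h Mfsd2a stood at 17.3, 38.6 and 19.8 CPM, from 259, 577 and 323 counts. At 4 h it stood at 37.0, 20.4 and 28.5 CPM, from 448, 246 and 432 counts. Replicate 2 was the highest at 1 h, the replicate 1 library the highest at 4 h, and no ischemic library overlapped with the normal ones. The lowest ischemic library was 26.1-fold above the highest normal library. The means were 0.536 ± 0.117 CPM in normal artery, 25.2 ± 11.6 CPM at 1 h and 28.7 ± 8.32 CPM at 4 h (SD, n = 3 each). The fitted log2 fold change was 5.54 (SE 0.45) at 1 h and 5.72 (SE 0.45) at 4 h, or 46.5-fold and 52.8-fold, with 43 and 22 fitted genes higher. These folds rest on 6 to 9 counts in each normal library, where counting alone gives an SD of 33.3% to 40.8% of the value.

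The order of the groups was 1 h, 4 h and normal for Apold1, and 4 h, 1 h and normal for Mfsd2a, and the 2 ischemic stages were not separable for either gene. From 1 h to 4 h the log2 fold change of Apold1 was -0.13 (SE 0.40, 95% interval -1.03 to 0.78; adjusted p = 0.921, edgeR's quasi-likelihood test with Benjamini-Hochberg adjustment). That interval runs from 0.489-fold to 1.72-fold. For Mfsd2a it was 0.18 (SE 0.35, 95% interval -0.63 to 0.99; adjusted p = 0.879 in the same test), or 0.647-fold to 1.99-fold. The sign of both estimates turned when some single libraries were left out, so neither a decline nor a further increase between the stages was detectable. Because the members were chosen for high levels in these same ischemic libraries, these adjusted p-values are not fully independent of that choice. A call in all that follows is an adjusted p under 0.05 with a fold over 1.5. Neither gene was called between the stages, and the background there was 0% of genes in the upward and 0% in the downward direction (400 of 15482 genes had an unadjusted p under 0.05, and DESeq2 also called 0).

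**Figure D1:**
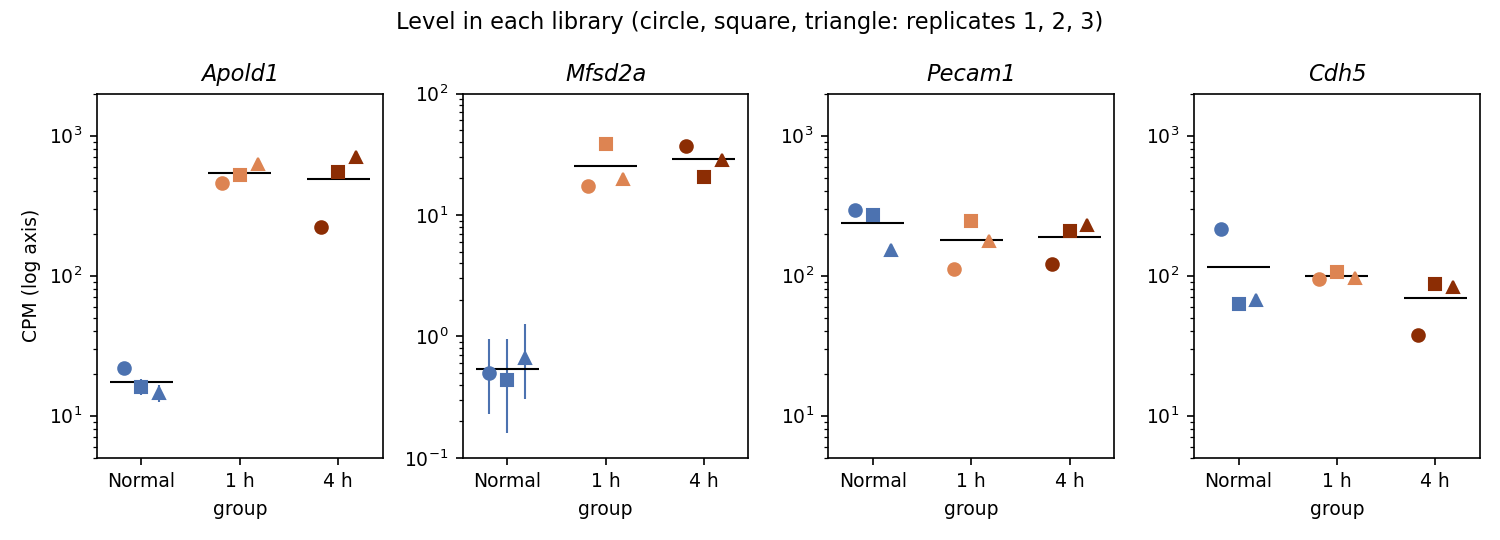
Level of Apold1, Mfsd2a, Pecam1 and Cdh5 in CPM on log axes, the Mfsd2a axis covering a lower range, in normal artery and at 1 h and 4 h. Each symbol is 1 library (replicates 1, 2 and 3 as circle, square and triangle), thin bars are exact Poisson 95% intervals and black lines are group means. Both members are separated from normal artery in all 6 ischemic libraries, whereas the endothelial genes overlap.

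The separation of the 3 normal from the 6 ischemic libraries was wide relative to other genes. All 6 ischemic libraries were above all 3 normal libraries for 3.99% of the genes fitted, and both members were among them by the way they were chosen. On log2 CPM with a prior count of 2, the step from the highest normal to the lowest ischemic library was 4.44 for Mfsd2a, and 0 fitted genes had a larger one. For Apold1 the step was 3.35, and 5 genes had a larger one. These ranks describe how far the selected genes stood from the rest and carry no test.

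Pecam1 and Cdh5 showed no such separation. Pecam1 stood at 293, 270 and 153 CPM in normal artery, at 112, 247 and 178 CPM at 1 h and at 121, 210 and 232 CPM at 4 h. Cdh5 stood at 215, 62.6 and 67.5 CPM in normal artery, at 95.3, 106 and 96.3 CPM at 1 h and at 37.5, 87.3 and 83.7 CPM at 4 h. Both genes overlapped between ischemic and normal artery, and neither was called. The log2 fold change of Pecam1 was -0.42 (SE 0.39, adjusted p = 0.568, edgeR) at 1 h and -0.35 (SE 0.39, adjusted p = 0.730) at 4 h. For Cdh5 it was -0.21 (SE 0.51, adjusted p = 0.837, edgeR) at 1 h and -0.73 (SE 0.51, adjusted p = 0.582) at 4 h. Normal replicate 1 decided the direction of Cdh5, which was 0.61 at 1 h and 0.093 at 4 h without that library.

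The mean log2 CPM of Pecam1 and Cdh5 was taken as the endothelial level of a library. It was 7.97, 7.02 and 6.67 in normal artery, 6.69, 7.34 and 7.03 at 1 h, and 6.08, 7.08 and 7.12 at 4 h. In 5 of the 6 ischemic libraries it lay within the range of the normal libraries, and in replicate 1 at 4 h it lay below. The difference from normal was -0.20 at 1 h (exact permutation test, two-sided, p = 0.9) and -0.46 at 4 h (exact permutation p = 0.6), where 3 against 3 libraries cannot go below 0.1. No higher endothelial level was therefore measured beside the higher members, and in the mean it was lower in ischemic artery by less than the spread between libraries.

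**Figure D2:**
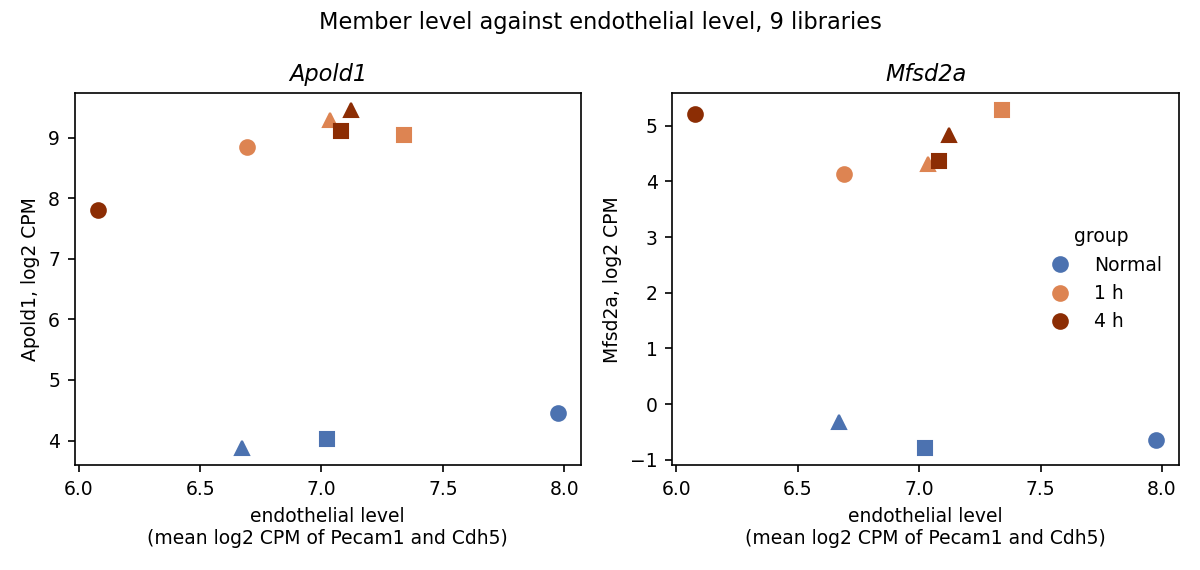
Level of Apold1 (left) and Mfsd2a (right) in log2 CPM against the endothelial level of the same library, the mean log2 CPM of Pecam1 and Cdh5, with symbols by replicate as circle, square and triangle. Ischemic and normal libraries share the range of endothelial levels from 6.67 to 7.34 and are far apart in both members.

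Relative to the endothelial level of their own library, both members remained far above normal artery in each ischemic library. The log2 level of Apold1 minus the endothelial level was -3.52, -3.01 and -2.80 in normal artery, 2.15, 1.70 and 2.25 at 1 h, and 1.73, 2.02 and 2.33 at 4 h. The sign of these values depends on gene length, and only differences between libraries are read from them. The difference from normal was 5.14 at both stages on the log2 scale, or 35.4-fold at 1 h and 35.2-fold at 4 h. The lowest ischemic library was 22.6-fold above the highest normal library. The same step in log2 CPM was 10.2-fold, so subtraction of the endothelial level widened it for Apold1.

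For Mfsd2a the relative log2 level was -8.61, -7.82 and -6.99 in normal artery, -2.57, -2.07 and -2.71 at 1 h, and -0.86, -2.72 and -2.28 at 4 h. The difference from normal was 5.36 at 1 h and 5.85 at 4 h, or 41.0-fold and 57.8-fold. These values used a prior count of 2, which lifts the low normal counts of Mfsd2a and makes the differences smaller. With a prior count of 0.5 they were 5.60 and 6.09. They are therefore not on the same scale as the fitted log2 fold changes. The lowest ischemic library was 19.2-fold above the highest normal library, against 21.8-fold before the subtraction, so for Mfsd2a the step narrowed. Of the genes fitted, 4.22% had all 6 ischemic libraries above all 3 normal ones on this relative scale, and 1 gene had a larger step than Apold1 and 2 had a larger step than Mfsd2a. Beside these differences, the endothelial level itself differed from normal by -0.20 at 1 h and -0.46 at 4 h on the log2 scale.

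The choice of endothelial reference made little difference. With Pecam1 alone, Cdh5 alone, or the mean or median of a list of 31 endothelial genes (30 of them fitted), the relative log2 difference of Apold1 lay between 4.91 and 5.38 at 1 h and between 5.02 and 5.27 at 4 h. For Mfsd2a it lay between 5.13 and 5.59 at 1 h and between 5.74 and 5.98 at 4 h. The smallest step from a normal to an ischemic library under any reference was 18.6-fold for Apold1 and 15.4-fold for Mfsd2a, both against Cdh5 alone at 1 h. When the endothelial level was put into the edgeR fit as a covariate instead, the log2 fold change against normal was 5.12 (SE 0.33) at 1 h and 5.09 (SE 0.33) at 4 h for Apold1, and 5.53 (SE 0.47) and 5.67 (SE 0.49) for Mfsd2a.

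**Figure D3:**
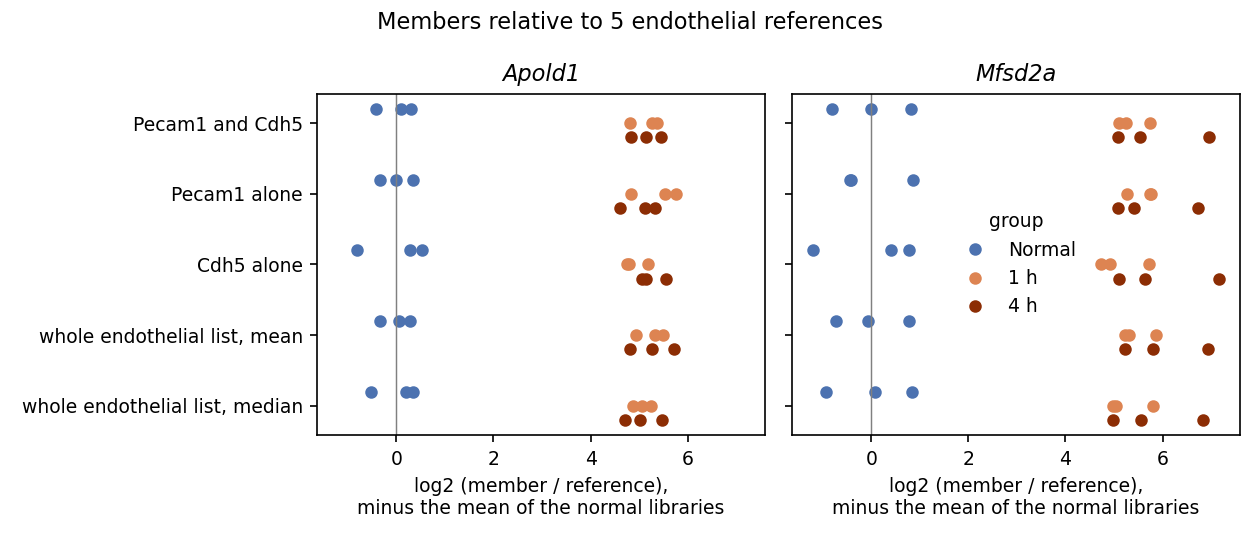
Level of Apold1 (left) and Mfsd2a (right) relative to 5 endothelial references, as the log2 ratio in each library minus the mean log2 ratio of the normal libraries. Each point is 1 library. Under each reference the ischemic libraries lie to the right of the normal ones with no overlap, and Mfsd2a in replicate 1 at 4 h lies farthest to the right.

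The members behaved differently over the 6 ischemic libraries, a contrast that rested on replicate 1 at 4 h. Over these 6 libraries the SD of log2 Apold1 was 0.59, and it was 0.27 after the endothelial level was subtracted. The highest library was 3.14-fold above the lowest before and 1.55-fold after. Replicate 1 at 4 h, the lowest in Apold1, was also the lowest in endothelial level. Its relative value of 1.73 was just above the lowest, 1.70. Against other references it stayed the lowest: 0.88 (next 1.09) with Pecam1 alone, 2.72 (next 2.85) with the list mean and 2.60 (next 2.76) with the list median. With Cdh5 alone it was not the lowest. For comparison, subtracting a single fitted gene left a smaller SD than 0.27 for 0.846% of genes. The endothelial level is a mean of 2 genes, so its place among single genes is not like for like. For Mfsd2a the SD went the other way, from 0.49 to 0.71, the same library being the lowest in endothelial level and close to the highest in Mfsd2a. Subtraction of the endothelial level left a larger SD for Mfsd2a than 56.5% of single genes did. Without replicate 1 at 4 h the contrast was not seen. In the other ischemic libraries log2 Apold1 ran from 8.84 to 9.45 before the subtraction and from 1.70 to 2.33 after it, no narrower. Log2 Mfsd2a ran there from 4.13 to 5.27 before and from -2.72 to -2.07 after, so its range narrowed.

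Other cell type levels gave a mixed picture. For Apold1 the SD was 0.34 with the whole endothelial list subtracted and 0.37 with a macrophage list, and from 0.69 to 2.65 with the smooth muscle, pericyte, fibroblast, adipocyte or peripheral nerve list. For Mfsd2a the smallest SD was 0.33, with the pericyte list (2.27% of single genes left a smaller one), followed by 0.39 with the fibroblast list (6.62%). Each list level is a mean over several genes, so the comparison with single genes is not like for like. These values describe 6 libraries, replicate 1 at 4 h among them, and were chosen for showing after they had been seen. They do not say which cells made either transcript.

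Across the whole endothelial list the values leaned below normal, opposite to the members. Of the 30 fitted genes (Robo4 had too few counts), edgeR called 0 in either direction at 1 h, where the background was 0.0517% of genes upward and 0.00646% downward. It also called 0 at 4 h, where the background was 0.0646% upward and 0.0258% downward. An unadjusted p under 0.05 was reached by 6 of the 30 at 1 h and by 8 at 4 h, each lower in ischemic artery, against 8.67% and 7.35% of all fitted genes lower at that threshold. DESeq2 called 2 (Egfl7 and Sox18) and 3 (with Myct1) as lower, where it called 2.24% and 2.37% of all genes lower. The median log2 fold change of the list was -0.43 at 1 h and -0.60 at 4 h, against -0.0076 and 0.027 over all genes. Without normal replicate 1 these medians were -0.065 and -0.18. The summed CPM of the list overlapped between groups, from 2060 to 4343 in normal artery, from 2017 to 3298 at 1 h and from 1616 to 2678 at 4 h.

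Within that list, 0 genes had all 6 ischemic libraries above normal, against 3.99% of all genes. The members had that pattern by the way they were chosen. In the other direction, 5 genes of the list had all 6 below (Egfl7, Erg, Sox18, Cd34 and Myct1), against 6.8% of all genes. Sox18, a transcription factor of vessel development named here after its values were seen, stood at 62.8 ± 39.0 CPM in normal artery, 8.85 ± 2.27 at 1 h and 6.18 ± 0.553 at 4 h (SD, n = 3 each), with log2 fold changes of -2.83 (SE 0.49, adjusted p = 0.121, edgeR) and -3.34 (SE 0.50, adjusted p = 0.0701). The most abundant genes of the list were nearer to normal. Ptprb, an endothelial phosphatase, had log2 fold changes of 0.39 and -0.14, Esam, a junction protein, -0.37 and -0.11, and S1pr1, a receptor for sphingosine 1-phosphate, 0.69 and 0.53, none of them called.

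**Figure D4:**
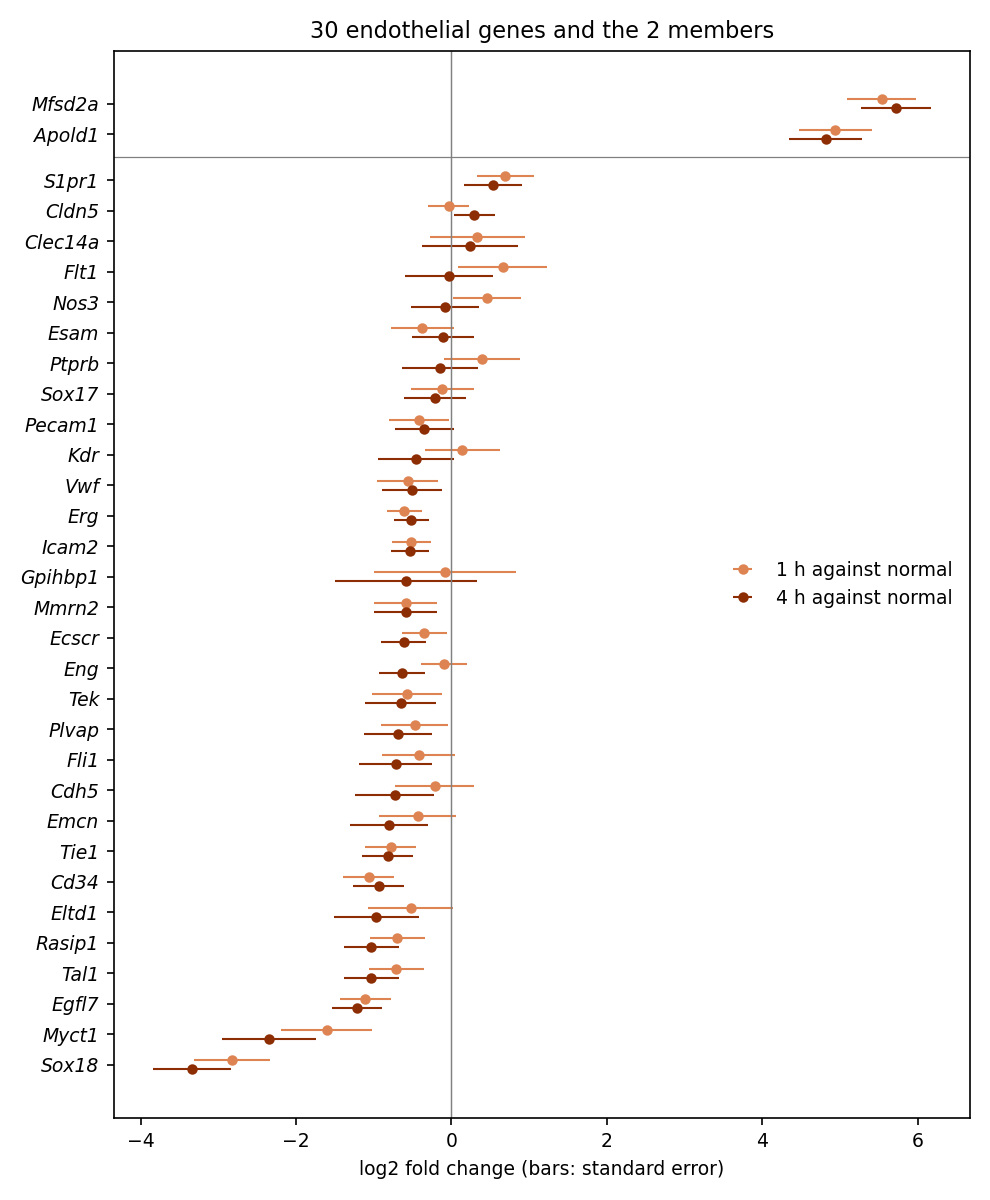
Fitted log2 fold changes (bars are standard errors) of 30 endothelial genes and of Apold1 and Mfsd2a at 1 h and 4 h against the same 3 normal libraries. The endothelial genes lie between -3.34 (Sox18 at 4 h) and 0.69 (S1pr1 at 1 h), and both members lie above 4.8.

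A list drawn up for activated endothelium, with earlier results of these data known, included the one list gene that was called. Its counts are set beside those of all genes as a description, with no set test. Csrnp1, the gene of a nuclear protein induced early by cytokines, stood at 11.7, 19.9 and 13.4 CPM in normal artery, at 76.9, 144 and 76.5 CPM at 1 h and at 117, 121 and 92.7 CPM at 4 h. It rose by 2.73 on the log2 scale at 1 h (SE 0.33, adjusted p = 0.0454, edgeR) and by 2.88 at 4 h (SE 0.33, adjusted p = 0.0284). This call was not stable against single libraries: at 1 h it was lost when any of the 9 libraries was left out (adjusted p from 0.0586 to 0.246, edgeR), and at 4 h in 7 of 9 (from 0.0223 to 0.163), being kept there without replicate 2 at 1 h or replicate 3 at 4 h. The log2 fold change stayed between 2.35 and 3.14 in these fits. Csrnp1 made 1 call in each contrast among 20 fitted genes, of which 11 at 1 h and 10 at 4 h had an unadjusted p under 0.05, all higher except Thbd at 4 h, against 7.98% and 5.07% of all fitted genes higher. DESeq2 called 10 higher at 1 h, and 7 higher and 1 lower at 4 h, where it called 2.29% and 1.54% of all genes higher. The medians of this list were 0.94 and 1.09, and 8 of its genes had all 6 ischemic libraries above normal, against 3.99% of all genes. Rhob, a small GTPase, had log2 fold changes of 0.53 and 1.08, and Rcan1, a calcineurin inhibitor, of 0.82 and 1.10, without a call. Many of these genes are also expressed outside endothelium. No gene of this list or of the endothelial list reached the size of the change of Apold1 or Mfsd2a at either stage.

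Relatives of the members were not called, and 0 calls among so few genes is near the shares over all genes. Over all genes edgeR called 0.0517% higher and 0.00646% lower at 1 h, and 0.0646% and 0.0258% at 4 h. DESeq2 called 2.29% and 2.24% at 1 h, and 1.54% and 2.37% at 4 h. An unadjusted p under 0.05 was reached by 7.98% and 8.67% at 1 h, and by 5.07% and 7.35% at 4 h. Of the apolipoprotein L relatives of Apold1, 3 were fitted (Apol3, Apol9a and Apol11a) and edgeR and DESeq2 called 0 of them against normal, with 0 at an unadjusted p under 0.05. Apol3 had a log2 fold change of -0.34 at 1 h and -0.10 at 4 h, Apol9a of 0.50 and -0.48, and Apol11a of 0.61 and -0.00023. Reads of this family can be shared among its near copies. Of 17 other MFSD genes, the transporter family of Mfsd2a, 14 were fitted and edgeR and DESeq2 called 0, with 0 at 1 h and 3 at 4 h (Mfsd4, Mfsd8 and Mfsd10, each lower, against 7.35% of all genes) at an unadjusted p under 0.05. Their medians were 0.0056 and -0.19. Mfsd6 had log2 fold changes of 2.11 (SE 1.17) and 1.26 (SE 1.14), with 116 and 129 CPM in replicates 1 and 3 at 1 h and 134 CPM in replicate 3 at 4 h, the libraries with the most peripheral nerve RNA. Mfsd1, Mfsd12 and Hiatl1 lay between -0.29 and 0.43.

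Genes that work beside Mfsd2a in lipid handling and in the endothelial barrier were not called by edgeR either. Over all genes edgeR called 0.0646% or fewer in either direction at each stage. Among 27 fitted genes of lysophospholipid and fatty acid handling, edgeR called 0, with 3 higher and 4 lower at 1 h and 2 lower at 4 h at an unadjusted p under 0.05. Over all genes the shares were 7.98% higher and 8.67% lower at 1 h, and 7.35% lower at 4 h. DESeq2 called 1 of the 27 higher and 3 lower at 1 h, against 2.29% and 2.24% of all genes, and 0 at 4 h. Fabp4, a fatty acid carrier of fat cells and capillaries, had log2 fold changes of 0.42 and -0.47, and the lipase gene Lpl of 1.11 and -0.13. Acsl1, which activates fatty acids, had 0.63 and -0.21, and the receptor gene Vldlr -0.65 and -0.18. Among 23 fitted genes of the barrier and of vesicle transport, edgeR called 0, with 3 higher at 1 h and 1 higher and 1 lower at 4 h at an unadjusted p under 0.05, where the shares over all genes were 7.98% higher at 1 h, and 5.07% higher and 7.35% lower at 4 h. DESeq2 called 3 and 1 higher, against 2.29% and 1.54% of all genes. Cav1, the coat protein of caveolae whose vesicles Mfsd2a is known to hold down at the blood-brain barrier, had log2 fold changes of -0.62 (adjusted p = 0.322, edgeR) and -0.21 (adjusted p = 0.800). Slc7a5, an amino acid transporter of barrier endothelium named after its values were seen, stood at 10.2 ± 2.03 CPM in normal artery, 126 ± 74.9 at 1 h and 39.9 ± 21.3 at 4 h (SD, n = 3 each), with adjusted p = 0.117 and 0.212 in edgeR. DESeq2 called Slc7a5 higher at both stages.

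Apold1 protein has been linked to Weibel-Palade bodies, the secretory granules of endothelium, and to endothelial contacts. Of 20 fitted genes of these structures edgeR called 0, where it called 0.0517% of all genes higher at 1 h and 0.0646% at 4 h. An unadjusted p under 0.05 was reached by 4 at 1 h and 2 at 4 h, all higher, against 7.98% and 5.07% of all genes. DESeq2 called 2 and 1 higher, against 2.29% and 1.54% of all genes. Edn1, the endothelin precursor, named after its values were seen, was the one gene of this list with all 6 ischemic libraries above normal. That is near the 3.99% over all genes. Edn1 stood at 8.56 ± 4.19, 34.2 ± 16.3 and 47.1 ± 18.2 CPM (SD, n = 3 each; adjusted p = 0.210 at 1 h and 0.118 at 4 h, edgeR), and DESeq2 called it higher at both stages. The medians of the list were 0.064 and -0.050.

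RNA of other tissues varied strongly between these libraries and its part in the levels of the members was not tested beyond the values that follow. The mean log2 CPM of 26 peripheral nerve genes was 5.20, 0.28 and 4.08 in normal artery, 7.58, 5.24 and 7.75 at 1 h, and 1.17, 1.92 and 7.67 at 4 h. In the nerve-poor replicates 1 and 2 at 4 h, Apold1 (223 and 551 CPM) and Mfsd2a (37.0 and 20.4 CPM) were still above each normal library. With that nerve level added to the fit, Apold1 had a log2 fold change of 4.52 (SE 0.45) at 1 h and 4.70 (SE 0.39) at 4 h, and Mfsd2a of 5.69 (SE 0.49) and 5.74 (SE 0.45). With the 3 nerve-rich libraries left out, a choice made after the data had been seen, it was 4.93 and 4.50 for Apold1 and 6.16 and 5.75 for Mfsd2a, the 1 h values then resting on replicate 2 alone. Adipocyte markers, of which 13 were fitted, summed to 635 to 3898 CPM in normal artery, 1121 to 3691 at 1 h and 635 to 1608 at 4 h, with overlap between all groups. Macrophage markers, 11 fitted, summed to 63.6 to 255 CPM, 126 to 260 CPM and 49.6 to 144 CPM in the same order.

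The genes whose profiles over the 9 libraries were most like those of the members came from one small set. Likeness was the root mean square difference of log2 CPM after each profile was centred on its own mean, so that a smaller value is closer. For Apold1 the nearest named genes were Sik1 (0.556), Icam4 (0.693), Mfsd2a (0.743), Mt1a (0.773) and Mt2A (0.829), against a median of 2.36 over 15481 genes. For Mfsd2a they were Sik1 (0.707), Mt1a (0.727), Apold1 (0.743), Icam4 (0.890) and Mt2A (0.902), against a median of 2.57. Each member was thus among the closest of the other, with 3 genes nearer to Apold1 and 2 nearer to Mfsd2a. Pecam1 was at 2.48 and 2.73, and Cdh5 at 2.43 and 2.74. Sik1, a kinase gene induced early by cAMP, stood at 7.18 ± 1.45, 112 ± 20.2 and 140 ± 28.4 CPM in normal artery, at 1 h and at 4 h (SD, n = 3 each). The metallothionein genes Mt1a and Mt2A have near copies that can share reads, and Icam4 averaged 0.118 CPM in normal artery. The likeness is set mainly by the step from normal to ischemic artery, on which the members were chosen.

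The genes next to the members on the chromosome were far nearer to normal. In the gene order of GRCr8, Apold1 lies between Cdkn1b, a cell cycle inhibitor, and Ddx47, an RNA helicase. Cdkn1b had log2 fold changes of -0.51 (SE 0.25) and -0.47 (SE 0.25), and Ddx47 of -0.35 (SE 0.14) and -0.22 (SE 0.14). Farther out, Dusp16, Crebl2, Gpr19, Gprc5a and Hebp1 lay between -0.40 and 1.47, and edgeR called none of the 7 fitted neighbours. Mfsd2a lies between Cap1, an actin regulator, with log2 fold changes of -0.20 and 0.29 (SE 0.40 in both), and Mycl, a Myc family gene, with 1.78 (SE 0.99) and 1.29 (SE 0.99). Mycl held 1 to 62 counts per library, and neither it nor Ppt1, Cap1 or Trit1 was called. Over all genes edgeR called 0.0646% or fewer in either direction at each stage, so the lack of calls among neighbours says little. A pseudogene that overlaps Apold1, LOC103692240, held 0 to 2 counts, and a long noncoding RNA that overlaps Mfsd2a, LOC100909490, held 0 to 28 counts with 0 in both nerve-poor libraries at 4 h, where Mfsd2a held 448 and 246 counts. Whether the counting used the strand is not given in the sources used here.

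**Figure D5:**
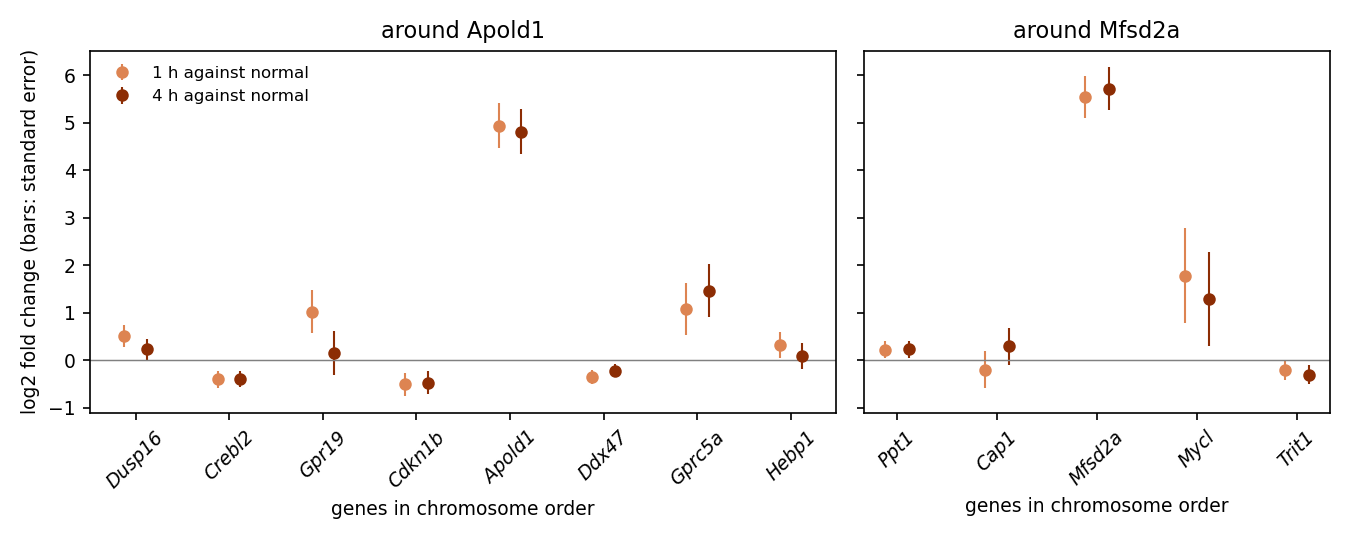
Fitted log2 fold changes (bars are standard errors) at 1 h and 4 h against normal artery for Apold1, Mfsd2a and the protein-coding genes with enough counts on either side of them, in the gene order of GRCr8 and not to scale. Both members stand above 4.8 and their neighbours lie between -0.51 and 1.78.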

How the data were processed

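The authors deposited raw counts per gene symbol for 9 libraries, 1 column each. HISAT2 is named in the submitters' processing notes with no version or role. The counting program, genome build and annotation are not given in the sources used here, and the study's methods also speak of microarrays, whereas the table holds whole numbers. The labels give 3 rats per group, and the study's wording can also be read as repeated individuals, so p-values measure the spread between these libraries. Total counts ran from 13114273 to 15504240, and 1 CPM was worth 12.1 to 17.9 counts after TMM scaling.

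Counts were fitted in R 4.3.3 with edgeR 4.0.16 (filterByExpr, TMM, quasi-likelihood test, all 9 libraries, group as the only term) for 15482 genes, with Benjamini-Hochberg adjustment over all of them. Alternatives used DESeq2 1.42.0, other scalings and filters, covariates and libraries left out. The rule named Apold1, Mfsd2a, Pecam1 and Cdh5, up to 4 genes of each of 17 lists (called genes first, then the most abundant) and the 5 genes of most similar profile. Members and lists were chosen with earlier results of these data known. Named genes are printed for the lists that bear on the members, without 1 gene that is not reported here, and other cell type lists only as levels.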

Additional observations from a re-analysis of the deposited data

How the results depend on the processing

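The log2 fold changes of both members against normal artery kept their sign under the 18 alternatives run for each, from 4.52 to 5.13 (1 h) and 4.47 to 5.14 (4 h) for Apold1 and from 5.10 to 6.16 and 5.47 to 5.92 for Mfsd2a. The ends of the 1 h ranges were Apold1 with the nerve level as covariate (4.52) and Mfsd2a without the 3 nerve-rich libraries (6.16). Leaving out 1 library gave 4.81 to 5.13 and 4.47 to 5.14 for Apold1 and 5.10 to 5.75 and 5.47 to 5.92 for Mfsd2a. Relative to the endothelial level, 11 alternatives gave 4.91 to 5.38 and 4.93 to 5.29 for Apold1 and 4.96 to 5.77 and 5.31 to 6.26 for Mfsd2a. Between the stages, Apold1 was 0.18 with the nerve covariate and -0.47 to 0.20 with 1 library left out, Mfsd2a was -0.42 without the nerve-rich libraries and -0.075 to 0.63 with 1 library left out, and neither was called in any of these fits; the cause was not tested. Pecam1 was 0.071 at 1 h without the nerve-rich libraries, and between the stages -0.092 with library size only, -0.57 without the nerve-rich libraries and -0.18 to 0.37 with 1 library left out. Cdh5 ran from -0.49 to 0.61 at 1 h and from -0.998 to 0.093 at 4 h with 1 library left out. The 0 endothelial genes called lower became 2 (1 h) and 3 (4 h) with DESeq2, 1 at 4 h with the nerve covariate, and 0 to 1 at 4 h with 1 library left out (1 without normal replicate 3). Csrnp1 also lost its call with only the groups compared (adjusted p = 0.143 and 0.0676, edgeR) and without the nerve-rich libraries (0.0571 and 0.0719), and kept it under the other alternatives that used all libraries.

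Over all genes the 9 calls at 1 h and 14 at 4 h became 702 and 606 with DESeq2, 18 and 134 with the nerve covariate, 4 and 4 with only the groups compared, 7 and 7 with the replicate block, and 0 to 11 and 1 to 14 with 1 library left out. Scaling by library size only moved the median of all genes at 4 h from 0.027 to -0.15, and there Apold1 was 4.68 and Mfsd2a 5.56. The labels share replicate numbers across groups, but the correlations of same-numbered libraries ran from -0.65 to 0.66, with 4 of 9 over 0.1, so the numbers were not taken to pair rats. With the replicate block Apold1 was 4.89 and 4.71 and Mfsd2a 5.52 and 5.73. Depth limits Mfsd2a in normal artery, where each library held 6 to 9 counts.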
